A study of Mus musculus with 6 samples.

Results

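The genes described here encode core and regulatory proteins of the splicing machinery, the nuclear apparatus that removes introns from pre-mRNA. They were the protein-coding rows of the deposited gene table whose symbols begin with Srsf and a number, Snrp, Sf3a or Sf3b, Hnrnp, or Prpf and a number. This gave 65 of 56747 gene rows, with 11 Srsf, 12 Snrp, 9 Sf3, 20 Hnrnp and 13 Prpf genes. A further 6 matching rows were processed pseudogenes and were not members. Of the 65 members, 64 passed the filter on low counts and were tested. Srsf12 did not, with raw counts of 10, 12 and 0 in the saline libraries and 8, 0 and 8 in the tacrolimus libraries. Values of 3 libraries are listed in the order of their replicate numbers throughout.

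Whole kidneys of wild-type mice (male, C57BL/6J, an inbred strain) were profiled by bulk RNA-seq after ischemia-reperfusion injury, in which the renal blood supply is stopped and then restored. Both groups had 30 min of ischemia and 24 h of reperfusion and were given the oral agent for 1 day before it, 0.9% saline in one group and tacrolimus at 1 mg/kg/day in the other. Each group had 6 animals in the design text and 3 libraries in the table. The ischemia was described as partial and bilateral for the saline group and as occlusion of both renal arteries for the tacrolimus group, so effects of surgery and of treatment cannot be told apart. As an immunosuppressant, tacrolimus acts through an FK506-binding protein to inhibit the phosphatase calcineurin. No uninjured kidney was among the libraries, so every value below compares injured kidneys with injured kidneys. All libraries are labelled as a single batch, and nothing says that each came from a separate animal, so the p-values measure library-to-library spread that may be technical.

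The spliceosome is built on each intron from small nuclear ribonucleoproteins (snRNPs), which pair a small nuclear RNA with a ring of Sm proteins and with proteins particular to each snRNP. The U1 snRNP binds the 5' splice site and the U2 snRNP, with its SF3a and SF3b subcomplexes, binds the branch point. The U4/U6.U5 tri-snRNP then joins and is remodelled into the catalytic enzyme with the help of PRPF proteins. SR proteins bind exonic enhancers and mostly promote exon inclusion, whereas hnRNPs coat nascent RNA and often oppose it. Most of these genes are known to be broadly expressed, so their levels in whole tissue are sums over many cell types. In such bulk RNA, fewer cells of a type and less RNA per cell cannot be told apart.

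Counts summed to 38443534 to 44476844 per library. Levels are given as CPM, which are counts scaled to a common TMM-normalised library total, or as the authors' FPKM. The FPKM also divide by a length for each gene. Over the whole table edgeR's quasi-likelihood test called 2 of 17557 genes at an adjusted p under 0.05, or 0.0114%. Saline replicate 1 stood apart from the other saline libraries, and without it the test called 2534 genes. It lay nearer to the tacrolimus mean than to the mean of saline replicates 2 and 3 in 72.6% of all genes tested. Values without that library are given beside the main ones. Since it is the saline library most like the tacrolimus libraries, leaving it out tends to widen differences between the groups by construction, so calls made without it show how far they depend on it and are not separate support. Defining markers of the kidney were present, with proximal tubule markers summing to 5894 to 12753 CPM and thick ascending limb markers to 2581 to 8095 CPM.

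Most splicing factor genes had lower levels in the tacrolimus group, and none passed the test. The log2 fold change of tacrolimus over saline was negative in 53 of the 64 tested members and positive in 11, which is 82.8% negative against 50.7% of all genes tested. The median log2 fold change was -0.16 over the members and -0.01 over all genes. By edgeR's quasi-likelihood test 0 of 64 members were called, against 0.0114% of all genes, and their adjusted p ranged from 0.392 to 0.995. At an unadjusted p under 0.05 there were 11 members with lower values, against 7.72% of all genes, and 0 with higher values, against 4.94%. The 3 tacrolimus libraries all lay below the 3 saline libraries in 19 members, against 11.0% of all genes, and all above them in 1 member, Prpf8, against 10.7%. DESeq2 called 1 member, Snrpd1, of the 63 for which it gave an adjusted p, against 1.44% of all genes called lower by it.

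Without saline replicate 1, edgeR's quasi-likelihood test called 12 members lower and 0 higher, against 6.16% and 7.85% of 18081 genes. These were Snrpb, Snrpd1, Snrpf, Snrpa1, Sf3b3, Prpf31, Srsf2, Srsf5, Hnrnpab, Hnrnpd, Hnrnpdl and Hnrnpl. The median over the members was then -0.24. In the full data, saline replicate 1 was nearer to the tacrolimus mean in 47 of 64 members, 73.4%, a share close to that over all genes. In 17 members, 26.6%, it lay between all tacrolimus libraries and both other saline libraries, against 8.04% of all genes.

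The families differed in how many members shared the lower level. All 10 tested Srsf genes had negative log2 fold changes, with a median of -0.18. Of the 12 Snrp genes 11 were negative, with a median of -0.27. The Sf3 genes had 8 of 9 negative and a median of -0.13, the Hnrnp genes 15 of 20 and -0.13, and the Prpf genes 9 of 13 and -0.11. Without saline replicate 1 the Hnrnp genes had 12 of 20 negative, 60% against 49.9% of all genes, and a median of -0.06. The other families then had 10 of 10 (Srsf), 11 of 12 (Snrp), 8 of 9 (Sf3) and 10 of 13 (Prpf) negative. These differences between families were not tested. Mean levels over the 6 libraries ranged from 1.81 to 116 FPKM among tested members.

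Summed over family members, the Snrp genes reached 161.4, 196.9 and 203.3 FPKM with saline and 142.3, 146.7 and 145.3 FPKM with tacrolimus. In the Srsf family the sums were 177.1, 217.9 and 210.5 with saline and 169.5, 173.7 and 179.2 with tacrolimus. In the Hnrnp family they were 505.7, 611.6 and 565.2 with saline and 444.3, 498.2 and 487.7 with tacrolimus. The groups were apart in the Snrp sum and overlapped in the Srsf sum, where saline replicate 1 lay below tacrolimus replicate 3. They were apart in the Hnrnp sum only with Hnrnpa3 in it. Without that gene, a choice made after its values were seen, saline replicate 1 was at 493.9 FPKM and tacrolimus replicate 2 at 496.4 FPKM. Prpf sums overlapped fully, at 94.9 to 105.8 with saline and 102.4 to 104.3 with tacrolimus. Sf3 sums were 112.2 to 125.6 with saline and 108.5 to 110.7 with tacrolimus, also apart.

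**Figure D1:**
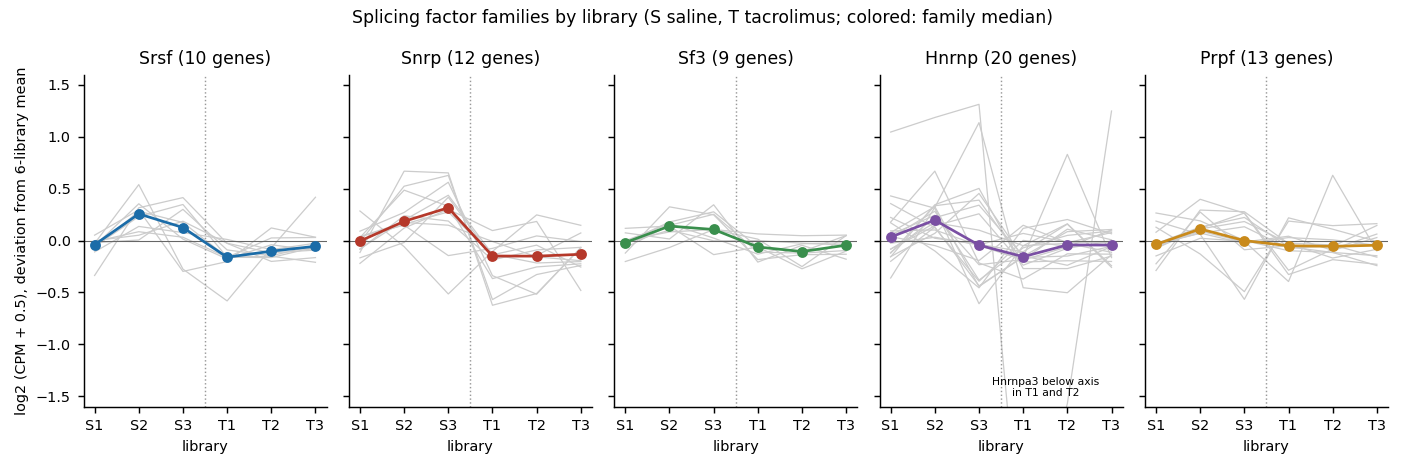
Deviation of each tested member from its mean over the 6 libraries, in log2 (CPM + 0.5), by library, with thin lines for genes and coloured points for the family median. The Snrp median is at -0.01, 0.19 and 0.32 in the saline libraries and at -0.15, -0.15 and -0.13 in the tacrolimus libraries, and Hnrnpa3 leaves the axis in tacrolimus replicates 1 and 2.

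The Sm ring, the heteroheptamer of small proteins that encircles the Sm site of the U1, U2, U4 and U5 RNAs, had the lowest median of the role groups with 5 or more genes. Of its 8 genes 7 had negative log2 fold changes, with a median of -0.34. In 6 the groups did not overlap, all lower with tacrolimus, against 11.0% of all genes. Snrpd1, which encodes SmD1, had 27.01, 39.4 and 42.4 CPM with saline and 18.2, 21.6 and 23.02 CPM with tacrolimus. All tacrolimus libraries lay below the lowest saline library. Its mean was 36.3 ± 8.18 CPM (SD, n = 3) with saline and 21.0 ± 2.47 CPM (SD, n = 3) with tacrolimus. The log2 fold change was -0.79 ± 0.20 (SE), with an adjusted p of 0.392 by edgeR, 0.0122 by edgeR without saline replicate 1 and 0.0465 by DESeq2. The table places Snrpd1 (ENSMUSG00000002477) on GRCm39 chromosome 18, from 10617775 to 10642079 on the plus strand.

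Snrpf, which encodes SmF, had 24.4, 33.7 and 30.2 CPM with saline and 18.4, 19.97 and 20.4 CPM with tacrolimus. Snrpg, encoding SmG, had 14.6, 16.6 and 20.4 CPM with saline and 10.7, 9.42 and 13.0 CPM with tacrolimus. Neither gene had overlapping groups, and within each the saline library nearest to tacrolimus was replicate 1. The log2 fold change of Snrpf was -0.59 ± 0.15 (SE), with an adjusted p of 0.392 by edgeR and 0.0180 without saline replicate 1. That of Snrpg was -0.64 ± 0.19 (SE), with an adjusted p of 0.392 by edgeR and 0.0526 without that library.

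Snrpb, which encodes SmB and SmB', was the most abundant Sm gene, with a mean of 35.6 FPKM over the 6 libraries. It had 61.5, 74.6 and 88.2 CPM with saline and 59.3, 55.9 and 56.5 CPM with tacrolimus. The tacrolimus values were tightly grouped, and the saline values spread upward from just above them. Its log2 fold change was -0.39 ± 0.15 (SE), with an adjusted p of 0.393 by edgeR and 0.0380 without saline replicate 1. Snrpd2 and Snrpd3, for SmD2 and SmD3, also had no overlap, with log2 fold changes of -0.30 ± 0.12 and -0.24 ± 0.11 (SE).

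Snrpe and Snrpn were the Sm genes with overlapping groups. Snrpe, for SmE, had 13.2, 16.8 and 19.1 CPM with saline and 16.5, 17.6 and 10.9 CPM with tacrolimus, so its low tacrolimus value came from replicate 3 alone. Snrpn, the imprinted gene for SmN, a paralog that can take the place of SmB, had 16.5, 12.9 and 9.29 CPM with saline and 12.5, 16.1 and 14.99 CPM with tacrolimus. It was the only Sm gene with a positive log2 fold change, 0.17 ± 0.23 (SE), and its order among the saline libraries was the reverse of that of Snrpb. Reads shared by Snrpb and Snrpn, which are similar in sequence, depend on the authors' counting.

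**Figure D2:**
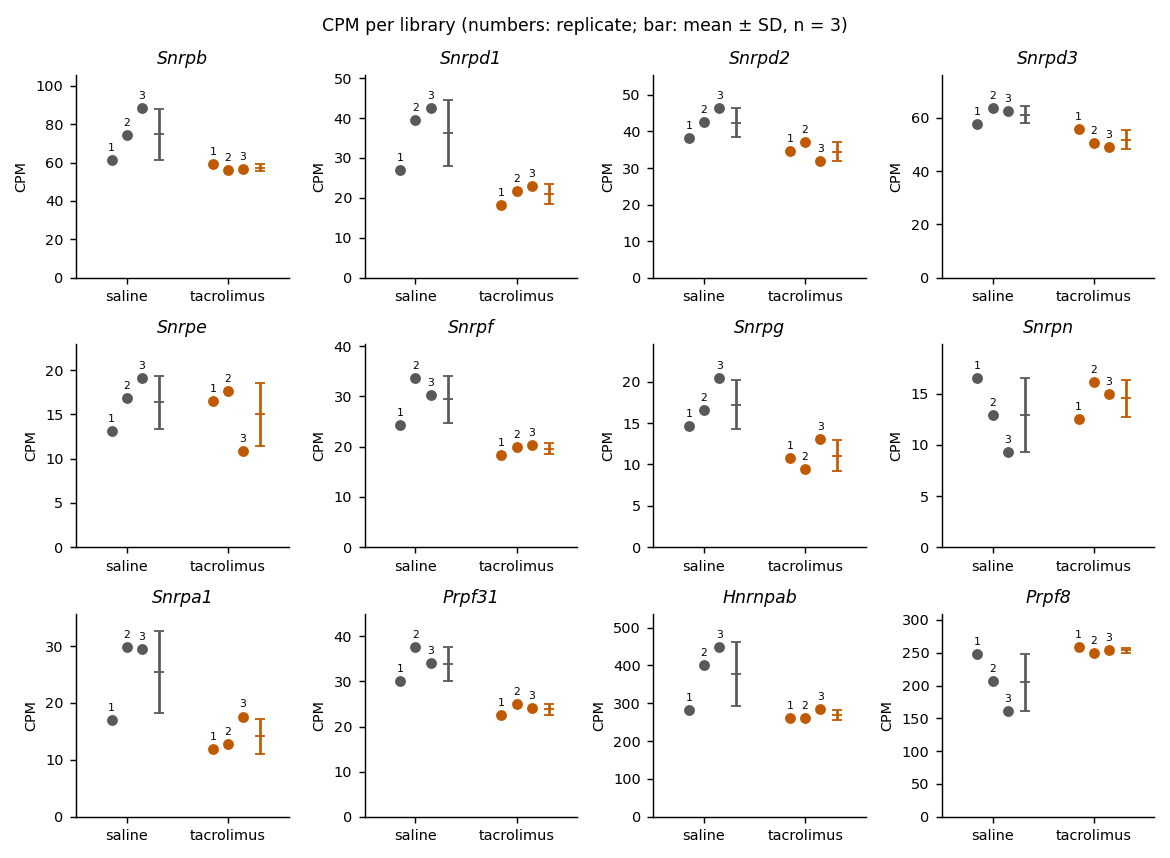
CPM per library for the 8 Sm ring genes and for Snrpa1, Prpf31, Hnrnpab and Prpf8, with points numbered by replicate and bars giving mean ± SD (n = 3). In 6 Sm genes and in Prpf31 every tacrolimus point lies below every saline point, whereas for Prpf8 every tacrolimus point lies above.

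Of the other Snrp genes, Snrpa1 had the largest difference. It encodes the U2 snRNP protein A', a leucine-rich repeat protein that binds the U2 RNA together with the product of Snrpb2. Snrpa1 had 17.1, 29.8 and 29.4 CPM with saline and 11.9, 12.9 and 17.6 CPM with tacrolimus. Tacrolimus replicate 3 was just above saline replicate 1, so the groups overlapped by that pair. The fitted difference was a log2 fold change of -0.85 ± 0.26 (SE), with an adjusted p of 0.392 by edgeR and 0.0213 without saline replicate 1. Snrpb2 had 18.4, 20.5 and 27.9 CPM with saline and 18.5, 18.7 and 21.9 CPM with tacrolimus. The 5 genes of U1 proteins and U1-associated factors had log2 fold changes from -0.24 to 0.19 and a median of -0.03. No gene among them was without overlap, against 11.0% of all genes lower and 10.7% higher.

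The promoter windows of 4 of the 5 members with the lowest unadjusted p are shown here (Snrpd1 is not shown), with Prpf8, the gene without overlap in the other direction, for comparison. They run from 250 bases before to 50 bases after the start, 5' to 3' on the gene's strand, and come from RefSeq on GRCm38.p6, another build than that of the table. Capitals mark exact matches on either strand. The ETS motif was searched as CCGGAAG, the CCAAT box as CCAAT itself, the E-box as CACGTG, the GC box as GGGCGG, the core of the cAMP response element as TGACGT and the TATA box as TATAAA.
Snrpf, chr10:93589609-93589908, minus strand: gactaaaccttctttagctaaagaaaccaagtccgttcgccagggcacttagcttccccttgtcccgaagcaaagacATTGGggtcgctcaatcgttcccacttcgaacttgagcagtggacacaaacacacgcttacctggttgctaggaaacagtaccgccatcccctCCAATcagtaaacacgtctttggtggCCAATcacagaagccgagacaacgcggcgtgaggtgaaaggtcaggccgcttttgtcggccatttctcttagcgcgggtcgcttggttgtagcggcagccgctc
Snrpg, chr6:86371290-86371589, plus strand: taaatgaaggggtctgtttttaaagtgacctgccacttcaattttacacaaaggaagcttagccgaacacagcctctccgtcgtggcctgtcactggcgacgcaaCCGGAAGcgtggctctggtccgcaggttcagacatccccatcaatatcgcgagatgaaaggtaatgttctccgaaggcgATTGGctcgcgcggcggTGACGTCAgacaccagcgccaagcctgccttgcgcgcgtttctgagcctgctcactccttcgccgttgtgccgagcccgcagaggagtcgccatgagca
Snrpa1, chr7:66060086-66060385, plus strand: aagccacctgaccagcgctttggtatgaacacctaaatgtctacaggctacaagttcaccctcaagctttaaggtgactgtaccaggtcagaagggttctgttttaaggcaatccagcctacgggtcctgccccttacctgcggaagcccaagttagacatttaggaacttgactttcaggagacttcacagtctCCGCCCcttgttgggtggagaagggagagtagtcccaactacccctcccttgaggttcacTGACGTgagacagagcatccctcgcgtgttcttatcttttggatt
Prpf31, chr7:3629735-3630034, plus strand: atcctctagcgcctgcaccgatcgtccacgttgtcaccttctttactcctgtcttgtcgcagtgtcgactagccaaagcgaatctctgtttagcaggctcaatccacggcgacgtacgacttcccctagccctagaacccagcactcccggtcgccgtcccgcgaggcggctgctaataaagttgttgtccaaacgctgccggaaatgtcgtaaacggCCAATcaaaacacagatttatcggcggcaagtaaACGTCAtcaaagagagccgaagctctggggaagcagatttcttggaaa
Prpf8, chr11:75486527-75486826, plus strand: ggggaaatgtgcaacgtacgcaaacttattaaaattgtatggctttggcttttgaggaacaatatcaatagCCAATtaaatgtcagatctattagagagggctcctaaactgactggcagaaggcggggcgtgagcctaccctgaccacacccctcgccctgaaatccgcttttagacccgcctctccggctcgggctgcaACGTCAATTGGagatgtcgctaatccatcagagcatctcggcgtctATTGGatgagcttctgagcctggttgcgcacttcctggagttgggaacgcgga
The Snrpf window holds 3 CCAAT matches, as does that of Prpf8, and 0 of these 5 windows hold TATAAA. The Snrpg window holds 1 ETS match, 1 CCAAT match and a palindrome that counts as 2 overlapping matches to TGACGT. Prpf31 has 1 CCAAT match and 1 match to TGACGT, Snrpa1 has 1 GC box and 1 match to TGACGT, and Prpf8 has 1 match to TGACGT that adjoins a CCAAT match.

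RefSeq windows were found for 57 of the 65 members, 77 windows in all, and were set against all 32851 windows of the same length. The ETS motif CCGGAAG stood in 32.5% of member windows and 8.86% of all windows, in 7 of the 8 Sf3 windows and in 4 of 27 Hnrnp windows. The GC box stood in 63.6% against 35.7%, in 13 of 14 Srsf windows and in 5 of 14 Snrp windows. CCAAT stood in 46.8% against 37.4%, with 17 of 27 Hnrnp windows but 4 of 14 Srsf and 4 of 14 Snrp windows. The response element core TGACGT stood in 20.8% against 7.51%, with 0 of 8 Sf3 windows. CACGTG stood in 14.3% against 7.15%, with 0 of 14 Srsf and 0 of 8 Sf3 windows. TATAAA was the rarer motif among members, with 9.09% against 13.6%. Member windows were richer in G and C, with a median GC content of 60% against 52.7%. Several windows belong to the same gene, and a match describes letters only.

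SF3a and SF3b are the U2 snRNP subcomplexes that hold the branch point. Of their 9 genes 5 had no overlap between groups, all lower with tacrolimus, against 11.0% of all genes. SF3b had a median log2 fold change of -0.26 over 6 genes and SF3a of -0.12 over 3. Sf3b3, a beta-propeller scaffold of SF3b, had 60.1, 82.0 and 77.7 CPM with saline and 57.5, 59.4 and 59.6 CPM with tacrolimus. Its saline replicate 1 lay within 1 CPM of the highest tacrolimus library, and its log2 fold change was -0.32 ± 0.14 (SE). The adjusted p was 0.401 by edgeR and 0.0339 without saline replicate 1.

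Sf3b1 encodes the HEAT-repeat subunit that contacts the branch point and is often mutated in human myelodysplastic syndromes. It was the only Sf3 gene with a positive log2 fold change, 0.10 ± 0.12 (SE), with 155, 171 and 193 CPM with saline and 187, 185 and 186 CPM with tacrolimus. The tacrolimus libraries all lay within the saline range. Sf3b2, which binds next to the branch site, was flat by comparison, with 152, 166 and 155 CPM with saline and 155, 152 and 150.4 CPM with tacrolimus. The smaller subunits Sf3b4, Sf3b5 and Sf3b6 had log2 fold changes of -0.23 ± 0.12, -0.30 ± 0.13 and -0.30 ± 0.13 (SE), each without overlap. Sf3a3 was the fifth gene without overlap, at -0.13 ± 0.11 (SE), and its highest tacrolimus value, 25.4 CPM, was close to its lowest saline value, 25.7 CPM.

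The 5 tri-snRNP genes of the Prpf family went both ways. Prpf31, which encodes a U4/U6 protein that bridges to U5 and whose human counterpart is mutated in retinitis pigmentosa, had 30.0, 37.5 and 34.2 CPM with saline and 22.5, 24.9 and 24.1 CPM with tacrolimus. The groups were well apart, and saline replicate 1 was again the lowest of its group. Its log2 fold change was -0.51 ± 0.13 (SE), a fitted level 29.6% lower, with an adjusted p of 0.392 by edgeR, 0.0254 without saline replicate 1 and 0.0574 by DESeq2. Its unadjusted p of 0.00535 in edgeR's fit was the lowest of all members. Prpf31 (ENSMUSG00000008373) lies on GRCm39 chromosome 7, from 3632984 to 3645485 on the plus strand.

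Prpf3 and Prpf4, which bind each other on the U4/U6 snRNP, also had no overlap. Prpf3 had 20.8, 19.7 and 17.2 CPM with saline and 16.1, 15.9 and 14.5 CPM with tacrolimus, and here saline replicate 1 was the highest library. Prpf4 had 24.8, 27.7 and 29.6 CPM with saline and 24.2, 23.3 and 22.8 CPM with tacrolimus. Their log2 fold changes were -0.31 ± 0.13 and -0.22 ± 0.12 (SE). Prpf6, which links U5 to U4/U6, was at -0.02 ± 0.11 (SE).

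Prpf8, the large U5 protein at the catalytic centre, was the most abundant Prpf gene, with a mean of 30.8 FPKM. It had 248, 207 and 161 CPM with saline and 258, 250.3 and 254 CPM with tacrolimus, and was the only member with every tacrolimus library above every saline library. Saline replicate 1 lay within 3 CPM of the lowest tacrolimus library. A log2 fold change of 0.31 ± 0.17 (SE) was fitted, with an adjusted p of 0.432 by edgeR and 0.0714 without saline replicate 1. Prpf19, the ubiquitin ligase of the Prpf19 complex, was at -0.11 ± 0.10 (SE), with means of 82.4 ± 4.92 and 76.3 ± 0.892 CPM (SD, n = 3 each). Prpf38b stood out for tacrolimus replicate 2 alone, at 50.9 CPM against 24.8 to 33.3 CPM in the other libraries.

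The 10 tested SR genes had log2 fold changes from -0.36 to -0.05, the narrowest range of the families. Srsf2 (SC35), the most abundant of them at a mean of 49.9 FPKM, had 140.3, 172 and 186 CPM with saline and 131, 131 and 126 CPM with tacrolimus. The tacrolimus libraries were close together and below every saline library. Its log2 fold change was -0.36 ± 0.14 (SE), with an adjusted p of 0.393 by edgeR and 0.0312 without saline replicate 1. Srsf9 and Srsf11 also had no overlap, at -0.16 ± 0.11 and -0.20 ± 0.13 (SE).

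Srsf5, an SR protein first described as an insulin-induced gene in rat liver, had 76.2, 120.1 and 129 CPM with saline and 94.6, 83.8 and 86.0 CPM with tacrolimus. Its saline replicate 1 was the lowest of all 6 libraries, and its log2 fold change was -0.30 ± 0.21 (SE). The adjusted p was 0.488 by edgeR and 0.0327 without that library. Srsf3, which shuttles between nucleus and cytoplasm and takes part in mRNA export, was at -0.27 ± 0.13 (SE), and tacrolimus replicate 3 and saline replicate 1 met at 110.0 and 109 CPM.

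Srsf1, the founding SR protein, varied widely within both groups, with 69.3, 103 and 58.3 CPM with saline and 47.0, 67.2 and 94.5 CPM with tacrolimus. Its highest and lowest libraries fell in different groups, and its log2 fold change was -0.14 ± 0.31 (SE). Srsf7, a zinc knuckle SR protein, was at -0.22 ± 0.14 (SE) and Srsf6 at -0.07 ± 0.11 (SE).

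The hnRNP genes had the highest summed FPKM of the families and the widest range of log2 fold changes, from -1.29 to 0.40. Hnrnpab, which encodes a binder of AU-rich and single-stranded sequences, had the highest mean of all members, 116 FPKM. It had 283, 401 and 448 CPM with saline and 262, 262 and 285 CPM with tacrolimus. Tacrolimus replicate 3 and saline replicate 1 differed by under 3 CPM, and saline replicates 2 and 3 were far above. For this gene the log2 fold change was -0.49 ± 0.19 (SE), with an adjusted p of 0.393 by edgeR and 0.0182 without saline replicate 1.

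Its paralogs Hnrnpd (AUF1), known for binding AU-rich elements in unstable mRNAs, and Hnrnpdl had the same order of libraries at the top. Hnrnpd had 66.4, 84.0 and 91.3 CPM with saline and 64.9, 61.0 and 69.1 CPM with tacrolimus. Hnrnpdl had 53.6, 86.2 and 152 CPM with saline and 50.2, 48.5 and 62.7 CPM with tacrolimus. In both genes saline replicate 3 was highest and saline replicate 1 lay within the tacrolimus range. The log2 fold changes were -0.31 ± 0.15 and -0.86 ± 0.36 (SE), with adjusted p of 0.408 and 0.397 by edgeR. Without saline replicate 1 edgeR gave adjusted p of 0.0493 and 0.0377.

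Hnrnpl, which binds CA repeats, was the only Hnrnp gene without overlap, 1 of 20 or 5% lower against 11.0% of all genes. It had 103, 141 and 147 CPM with saline and 96.9, 97.7 and 97.3 CPM with tacrolimus, and the tacrolimus libraries were nearly equal. Its log2 fold change was -0.42 ± 0.16 (SE), with an adjusted p of 0.392 by edgeR and 0.0163 without saline replicate 1.

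The best known hnRNPs overlapped between groups. Hnrnpa1, a silencer of exon inclusion, had 170.0, 239 and 129 CPM with saline and 116, 137 and 137 CPM with tacrolimus. Hnrnpa2b1 had 353, 402 and 289 CPM with saline and 299, 367 and 341 CPM with tacrolimus. In both genes saline replicate 2 was highest. Hnrnpk, a binder of C-rich sequences, was at -0.13 ± 0.12 (SE), and Hnrnpu, a nuclear scaffold protein, at -0.13 ± 0.15 (SE).

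**Figure D3:**
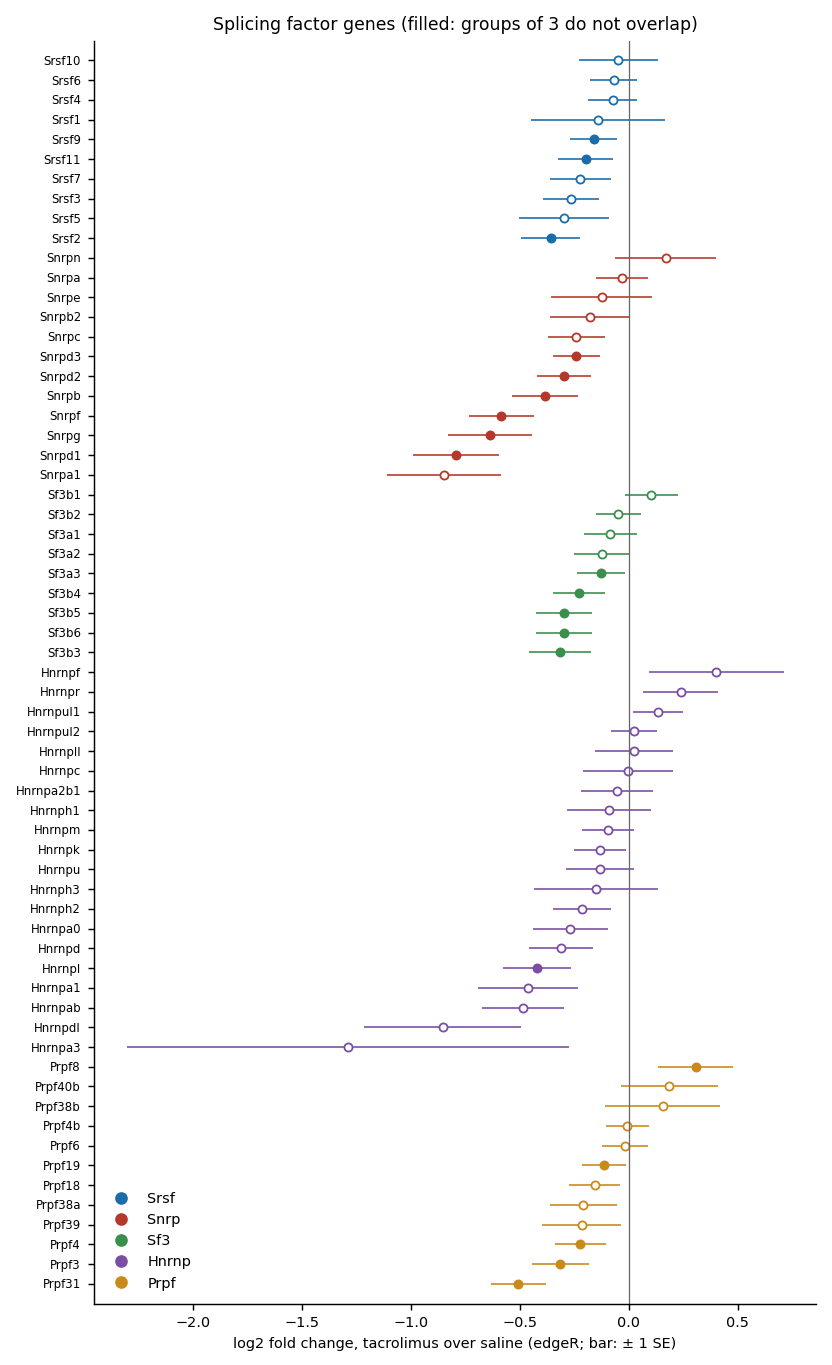
Log2 fold change of tacrolimus over saline for 63 of the 64 tested members by family, with bars of ± 1 SE from edgeR and filled points where the groups of 3 do not overlap. The 19 filled points to the left of 0 include 6 Sm ring genes, and Prpf8 is the only filled point to the right.

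Hnrnpa3 had the lowest fitted value of all members and the widest error. Its raw counts were 2618, 2753 and 3199 with saline and 120, 418 and 3085 with tacrolimus, so that tacrolimus replicates 1 and 2 were far below and replicate 3 was level with saline. The log2 fold change was -1.29 ± 1.02 (SE), with an adjusted p of 0.531 by edgeR, and it ran from -3.47 to -0.75 when a library was left out. The table also holds 50 pseudogene rows whose annotated closest protein is the same as that of Hnrnpa3. These rows held 86.7% of the combined counts, with 285, 397 and 358 CPM with saline and 268, 291 and 313 CPM with tacrolimus. The sum of gene and pseudogene rows was 349, 467 and 435 CPM with saline and 271, 301 and 386 CPM with tacrolimus, and tacrolimus replicate 3 lay above saline replicate 1. How the authors assigned reads that fit several of these rows is not given in the sources used here, so the Hnrnpa3 value is uncertain.

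Such pseudogene rows were found for 31 members and held over 10% of the combined counts for 4 of them. Besides Hnrnpa3 these were Hnrnpf with 44.5%, Snrpe with 21.8% and Snrpg with 17.7%. Hnrnpf, which binds G-rich tracts, had 78.6, 99.0 and 66.6 CPM with saline and 80.9, 161 and 80.6 CPM with tacrolimus. Its log2 fold change of 0.40 ± 0.31 (SE) came from tacrolimus replicate 2 and was -0.01 without it. For Snrpg the groups did not overlap with the pseudogene rows added either, at 17.9 to 22.9 CPM with saline and 13.1 to 15.6 CPM with tacrolimus. For Snrpe the pseudogene rows were highest in tacrolimus replicate 3, at 6.80 CPM against 3.48 to 4.58 CPM in the other libraries. With them added, that library was at 17.7 CPM, above saline replicate 1 at 17.1 CPM.

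**Figure D4:**
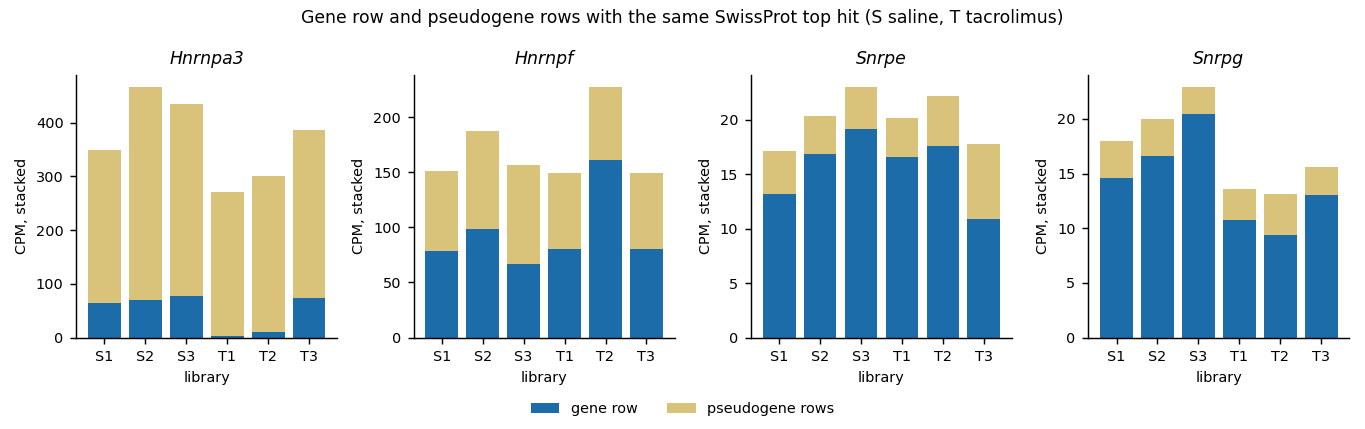
CPM of the gene row and of pseudogene rows with the same closest protein, stacked, per library, for the 4 members in which such rows held over 10% of the combined counts. For Hnrnpa3 the gene row nearly vanishes in tacrolimus replicates 1 and 2, at 2.82 and 9.91 CPM, while the pseudogene rows lie between 268 and 397 CPM in all libraries.

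Longer members tended to have less negative values. Gene lengths were those of the table, and Spearman's rho between length and log2 fold change was 0.38 across the 64 tested members and 0.19 across all 17557 genes. These genes share libraries and are not independent. With all genes cut into 4 length classes of nearly equal size, in the shortest, up to 1744 bases, the median log2 fold change was -0.34 over 8 members and -0.16 over all genes. In the longest, over 4450 bases, it was -0.09 over 17 members and 0.09 over all genes. In each of the 4 classes the members' median was below that of all genes. The length classes rest on the listed lengths only, which differ from the lengths behind the FPKM for some members, such as Snrpd1. The part of gene length in the differences between families was not tested.

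**Figure D5:**
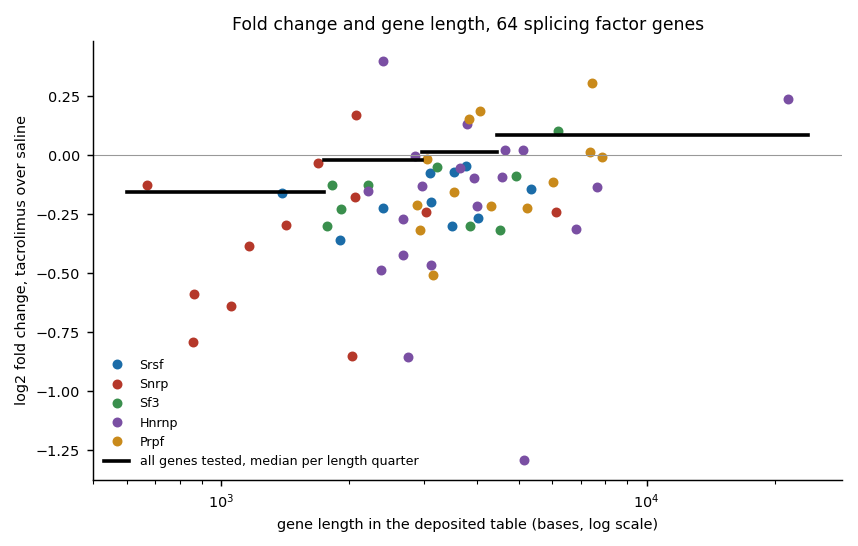
Log2 fold change of tacrolimus over saline against gene length in bases (log axis) for the 64 tested members, coloured by family, with horizontal bars for the median of all genes tested in each of 4 length classes. The Sm genes with short listed lengths lie at the left, and most points fall below the bar of their class.

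Genes that work with these proteins were taken from 8 lists, which held 145 genes, 143 of them tested. By edgeR's quasi-likelihood test 0 of 143 were called in all 6 libraries, against 0.0114% of all genes. DESeq2 called 0, against 233 lower and 111 higher of the 16169 genes with an adjusted p. At an unadjusted p under 0.05 there were 15 lower and 1 higher, against 7.72% and 4.94% of all genes. Without saline replicate 1 there were 11 called lower and 1 called higher of 145, against 6.16% and 7.85% of all genes. Log2 fold changes in all 6 libraries were negative in 99 of these genes and positive in 44, which is 69.2% negative against 50.7% of all genes, with a median of -0.15. The remaining snRNP and Sm-like proteins had 18 of 22 negative with a median of -0.19, and the SMN complex and its assembly partners, which load the Sm ring onto RNA, had 12 of 15 negative with a median of -0.19. Exon junction complex genes had 8 of 11 negative and a median of -0.23, and minor spliceosome genes 6 of 9 and -0.29. The branch point and 3' splice site factors had 9 of 13 negative and a median of -0.08, the Prpf19 complex and step factors 13 of 21 and -0.09, and splicing regulators outside the SR and hnRNP families 31 of 46 and -0.15. The SR protein kinase list was even, with 5 of 10 negative and a median of -0.01.

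Within the assembly list, Smn1, the SMN protein gene, had 14.7, 15.8 and 17.7 CPM with saline and 12.0, 11.01 and 11.7 CPM with tacrolimus, without overlap. Gemin4, a scaffold of the same complex, was at -0.70 ± 0.24 (SE), with an adjusted p of 0.392 by edgeR. Without saline replicate 1 it was at -0.91, with an adjusted p of 0.0174. U2af1, which reads the AG of the 3' splice site, had 46.1, 53.9 and 67.9 CPM with saline and 38.2, 38.7 and 38.3 CPM with tacrolimus. Its tacrolimus libraries were nearly equal and all below saline, as in Hnrnpl.

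Among regulators outside the families, Ptbp3, a pyrimidine-tract binding protein, had 102, 217 and 221 CPM with saline and 113, 100.1 and 106 CPM with tacrolimus, so saline replicate 1 lay within the tacrolimus range. In all 6 libraries edgeR did not call Ptbp3, the lowest adjusted p in its list being 0.392. Without saline replicate 1 edgeR gave Ptbp3 an adjusted p of 0.00604. Snrnp200, the helicase that works beside the Prpf8 protein in U5, had 101, 88.0 and 73.4 CPM with saline and 103, 109 and 106 CPM with tacrolimus. As in Prpf8, the saline values fell from replicate 1 to replicate 3, and every tacrolimus library lay above every saline library. Acin1, an exon junction complex partner, also had higher values without overlap, at 0.35 ± 0.10 (SE).

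Markers of injury and of other cell types were also read in the same libraries. All 4 tubular injury markers (Havcr1, Lcn2, Krt20 and Sprr1a) were lower with tacrolimus without overlap and summed to 398, 2392 and 4346 CPM with saline and 74.9, 111 and 216 CPM with tacrolimus. All 5 neutrophil markers were lower without overlap and summed to 9.91, 24.2 and 28.7 CPM with saline and 5.48, 4.93 and 3.27 CPM with tacrolimus. Over all genes 11.0% were lower without overlap. By edgeR none of these injury and neutrophil markers was called, each with an adjusted p of 0.392. Their adjusted p by DESeq2 ran from 5.94e-05 for Havcr1 to 0.0869 for Csf3r. In the injury and the neutrophil sum saline replicate 1 lay between the tacrolimus libraries and the other saline libraries. All 6 proximal tubule markers had positive log2 fold changes and summed to 5894 to 9920 CPM with saline and 10828 to 12753 CPM with tacrolimus. Of 11 cycling cell markers 9 had negative log2 fold changes, with sums of 123 to 156 CPM and 89.7 to 125 CPM. Without saline replicate 1 the cycling markers were 6 negative and 5 positive, and 1 of the 6 proximal tubule markers turned negative. The 4 macrophage markers with positive and 1 with negative log2 fold change summed to 53.0 to 80.0 CPM with saline and 71.4 to 90.8 CPM with tacrolimus, and the 4 T and B cell markers summed to 0.152 to 1.03 CPM over the libraries. Log2 fold changes were also positive for 3 of 3 thick ascending limb, 4 of 4 endothelial, 3 of 3 fibroblast and pericyte, 4 of 4 red blood cell, 3 of 4 distal tubule and collecting duct and 2 of 3 podocyte markers. The part of these markers in the splicing factor levels was not tested.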

How the data were processed

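Groups and replicate numbers came from the sample titles, and doses and times from the design text. Zafirlukast stands in the series title, whereas the treated libraries are labelled tacrolimus. Per the labels' protocols RNA came from TRIzol or a column kit with DNase. The design text describes the stored sample for sequencing as a centrifuged buffer homogenate. The deposited table gives raw whole-number counts and FPKM per gene and library, per the file headers. The deposited FPKM values carry the authors' own scaling of the libraries and their own gene lengths. In saline replicate 1 Snrpd1 had 1115 counts and 13.2 FPKM, and Snrpf had 1008 counts and 28.4 FPKM. Their listed gene lengths are 858 and 861 bases, so the length behind the FPKM is not always the listed one. The build was GRCm39 according to the submitters' processing notes. Which aligner, counter, strand setting and annotation were used is not given in the sources used here. All sample columns belong to these 6 libraries, and 1 row is not analysed here.

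Differences were tested on counts in edgeR 4.0.16 (R 4.3.3), with filterByExpr (minimum count 10, minimum total 15), TMM scaling, robust glmQLFit and glmQLFTest. Two-sided p-values were adjusted over the 17557 tested genes by the Benjamini-Hochberg method, with a threshold of 0.05. SE values were derived from the F statistic of each fold change. Family medians by library used log2 (CPM + 0.5). Alternatives were DESeq2 1.42.0, limma 3.58.1 on log2 (FPKM + 0.1), other scalings, no filter, a replicate block and leaving out each library in turn. How much of each gene's error came from counting and how much from spread between libraries was not tested. No pair of libraries agreed within sampling noise.

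The members, partner lists and rules were chosen with earlier results of these data known. Named members are, per family, the 4 with the smallest unadjusted p and the 3 with the highest mean FPKM, those called or failing the filter, and 14 genes of interest. Named partner genes are, per list, the 3 with the smallest unadjusted p, those called, and 10 genes of interest, of which a selection is described. Hnrnpa3, Hnrnpf, Prpf38b, Sf3a3, Snrpd2, Srsf9, Snrpe and Snrpb2 were named after their values were seen. Some partner genes stand in more than 1 list, and Prpf4b was counted as a member only. Pseudogene rows were matched by the closest protein named in the table. The values of 1 member and 1 partner gene are not reported here singly.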

Additional observations from a re-analysis of the deposited data

How the results depend on the processing

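Which library was left out mattered most. Leaving out each replicate in turn gave 0 to 2534 genes called over the table and 0 to 12 splicing factor genes called, with both highest values without saline replicate 1. The number of members with a positive log2 fold change was 9 to 18, with 18 without saline replicate 2. The median log2 fold change ran from -0.24 to -0.13 over all members, from -0.23 to -0.13 for Srsf, from -0.35 to -0.23 for Snrp, from -0.19 to -0.11 for Sf3, from -0.19 to -0.06 for Hnrnp and from -0.17 to -0.072 for Prpf. Why saline replicate 1 differs was not tested.

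DESeq2 called 344 genes and 1 member, and limma on log2 (FPKM + 0.1) called 1 gene and 0 members. The cause was not tested. Other scalings and no filter on low counts left 2 genes and 0 members called. Over these settings 11 to 13 members had positive values, and no setting moved the median of all genes by more than 0.03 on the log2 scale.

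Nothing in the labels says that replicate numbers pair animals. Same-numbered deviations correlated at -0.02, -0.01 and -0.05, so the numbers were not taken as pairs. With the replicate block 1 gene and 0 members were called.

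Signs turned in some genes. Since edgeR called no member or partner gene in all 6 libraries, this says nothing about the signs of called genes. Clk1, at -0.02, was at 0.0059 with library totals only, 0.028 with limma and 0.022 with the replicate block. Leaving out each replicate gave -0.14 to 0.25 for Clk1, -0.11 to 0.28 for Esrp1, -0.17 to 0.064 for Hnrnpa2b1, -0.0095 to 0.57 for Hnrnpf, -0.20 to 0.36 for Prpf38b, -0.045 to 0.028 for Prpf6, -0.29 to 0.019 for Snrpb2, -0.26 to 0.051 for Snrpe, -0.020 to 0.39 for Snrpn and -0.44 to 0.13 for Srsf1.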
